A study of Mus musculus with 16 samples.

Results

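Coenzyme A (CoA) is the carrier on which cells activate fatty acids, and its amount in liver is set by synthesis from the vitamin pantothenate and by breakdown. Pantothenate kinases commit the vitamin to the pathway, 3 later enzymes turn phosphopantothenate into CoA, and in the peroxisome the Nudix enzymes NUDT7 and NUDT19 cut CoA and acyl-CoA, releasing phosphopantetheine. Pantetheinases, the vanin proteins, hydrolyse pantetheine to cysteamine and pantothenate, so that the vitamin can be used again. The 10 genes followed here were taken by name from this cycle, with earlier results of these data known. These were the pantetheinases Vnn1 and Vnn3, the synthesis genes Pank1, Pank2, Pank3, Ppcs, Ppcdc and Coasy, and the peroxisomal CoA diphosphatases Nudt7 and Nudt19. They are 10 of 18193 genes that had a probe set of their own on the array.

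Liver RNA of 16 male mice, 3 to 5 months old, was hybridised singly to Affymetrix whole-genome mouse arrays, with 4 mice in each of 4 groups. Wild type mice were 129S1/SvImJ and PPARα-null mice were 129S4/SvJae, so that substrain and genotype cannot be told apart between the genotypes. PPARα is a nuclear receptor that switches on genes of fatty acid breakdown in liver, and Wy14643 is a synthetic agonist of it. Mice of each genotype received food with 0.1% Wy14643 by weight for 5 days or the same food without it. The receptor is missing from every tissue of the knockout and not from liver alone, and the samples were whole liver, in which fewer cells of a type and less RNA per cell cannot be told apart. Levels are log2 intensities, on which a difference of 1 is a doubling, and each gene is given by its brightest probe set unless stated. A gene was called changed where limma gave an adjusted p below 0.01 and a fold above 1.5.

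Array medians lay between 2.15 and 2.24, and replicate arrays correlated at 0.987 to 0.995 across probe sets. A probe set whose group mean is at or under 2.24 is treated as near background. The probe set of Ppara itself still gave signal in the knockout, at 9.35 to 10.04 with Wy14643 and 8.82 to 9.71 without, against 10.70 to 10.82 and 9.77 to 10.07 in wild type, and whether it lies in the deleted part is not given in the sources used here. All 4 measured genes of a small list of well known PPARα targets were called higher with Wy14643 in wild type and none in the knockout. All 9 hepatocyte markers were above background in every group, their summed linear intensity being 58350 to 61570 in treated wild type arrays and 71850 to 76610 in the others, with 2 of the 9 called lower in treated wild type. Of 10 Kupffer cell markers 9 were called lower in treated wild type mice (summed intensity 724 to 941 against 1368 to 1934 in the others), and 3 of 6 stellate cell markers were lower. Of 6 endothelial markers, Clec4g was called lower and Lyve1 higher, by 2.63, and their summed intensity was 654 to 781 in treated wild type arrays against 798 to 1043 in the others. All 5 measured neutrophil markers were at or near background in every group. Between treated and untreated wild type mice 7.72% of all genes were called higher and 6.74% lower. Among genes with a mean level above 4 the shares were 12.9% and 14.8%. The part of these cell type shifts in the results was not tested.

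Promoter sequence shows where the genes start and what lies before them. RefSeq (GRCm38.p6) gave 12 windows, from 250 bases before to 50 after a start, for 8 of the 10 genes. No window was available for Vnn1 and Coasy, whose promoters were not searched. The windows of Vnn3, Pank1, Ppcs, Ppcdc and Nudt7 are printed. Vnn3, Pank1 and Ppcs were taken for their rises and Nudt7 for its fall, described below, and Ppcdc for the closest motif match. Each is written 5′ to 3′ on the strand of its gene, with the start site as base 1 and the base before it as -1. Capitals mark the motif AGGTCA where it stands alone, or the best match to its direct repeat (AGGTCA, any base, AGGTCA), the arrangement that PPARα with its partner RXR is known to bind, where that match missed at most 3 of the 12 fixed letters on either strand.
Vnn3, chr10:23851212-23851511, plus strand: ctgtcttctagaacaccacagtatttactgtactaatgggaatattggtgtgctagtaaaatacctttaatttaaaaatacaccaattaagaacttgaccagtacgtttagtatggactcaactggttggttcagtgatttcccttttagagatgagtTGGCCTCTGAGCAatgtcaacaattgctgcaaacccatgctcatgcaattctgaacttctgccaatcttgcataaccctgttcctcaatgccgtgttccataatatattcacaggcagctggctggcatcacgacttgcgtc
Pank1, the second of its windows, chr19:34879406-34879705, minus strand: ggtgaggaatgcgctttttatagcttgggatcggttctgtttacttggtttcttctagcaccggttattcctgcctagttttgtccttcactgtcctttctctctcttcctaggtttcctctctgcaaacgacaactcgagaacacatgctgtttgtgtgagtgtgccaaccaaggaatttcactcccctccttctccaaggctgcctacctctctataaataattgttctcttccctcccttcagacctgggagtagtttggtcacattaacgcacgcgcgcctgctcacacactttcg
Ppcs, chr4:119422371-119422670, minus strand: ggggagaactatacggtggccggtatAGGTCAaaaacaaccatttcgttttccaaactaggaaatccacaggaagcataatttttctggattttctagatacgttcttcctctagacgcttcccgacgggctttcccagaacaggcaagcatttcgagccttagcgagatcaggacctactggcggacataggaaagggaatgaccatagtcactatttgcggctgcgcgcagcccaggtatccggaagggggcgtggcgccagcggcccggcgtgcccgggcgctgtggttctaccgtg
Ppcdc, chr9:57439687-57439986, minus strand: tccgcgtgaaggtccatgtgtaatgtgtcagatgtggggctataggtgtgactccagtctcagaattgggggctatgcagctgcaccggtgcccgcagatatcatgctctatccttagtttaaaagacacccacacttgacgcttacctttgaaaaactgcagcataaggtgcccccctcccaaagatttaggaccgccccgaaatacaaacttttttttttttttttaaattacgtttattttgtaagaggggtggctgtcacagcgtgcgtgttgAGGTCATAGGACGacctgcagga
Nudt7, the second of its windows, chr8:114133368-114133667, plus strand: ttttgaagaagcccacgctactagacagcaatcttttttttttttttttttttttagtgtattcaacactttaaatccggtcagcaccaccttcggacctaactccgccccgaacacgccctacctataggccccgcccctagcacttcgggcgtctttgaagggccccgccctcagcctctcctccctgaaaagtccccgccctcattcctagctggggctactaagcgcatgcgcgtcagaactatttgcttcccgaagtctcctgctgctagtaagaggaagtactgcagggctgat

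The exact direct repeat was in 0 of the 12 windows, and in 0.0396% of all 32851 windows in the table. A match with at most 3 mismatches was in 4 of the 12, which compares with 24.6% of all windows. The closest was in Ppcdc at 28 bases from the start, with 2 mismatches, a grade reached by 3.86% of all windows. Vnn3 held a match with 3 mismatches on the opposite strand at -92, Nudt19 held another with 3 at -216, and the last, also with 3, was in the first window of Pank2. A single AGGTCA on either strand was in 2 windows, those of Ppcs at -224 and Ppcdc at 28, against 16.3% of all windows, the one in Ppcdc being also the start of its repeat-like stretch. The windows of Pank1 and Nudt7 held none of these. Such matches describe letters and are not taken as binding sites.

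In wild type liver, by the brightest probe sets, both pantetheinases and 5 of the 6 synthesis genes, all but Ppcdc, were called higher with Wy14643. Nudt7 was called lower. The Pank2 call depended on the probe set, as described below. In wild type mice 7 of the 10 genes were called higher with Wy14643 and 1 lower, while 7.72% of all genes were called higher and 6.74% lower, 14.5% together (12.9% and 14.8%, 27.7% together, of the genes whose mean level was above 4, as that of all 10 is). The groups with and without Wy14643 did not overlap for 9 of the 10 genes, against 29.1% of all genes and 53.6% of those with a mean above 4. The median difference of the 10 genes was 0.79, against -0.03 for all genes. Because the genes were chosen with earlier results of these data known, such shares, here and below, describe the list and do not test it. In knockout mice 0 of the 10 genes were called, the background being 0.0275% of genes, and their differences ran from -0.04 to 0.27. The difference between the responses of the genotypes, the interaction, was called higher in wild type for 6 genes and lower for 1, with 10% of all genes called, 5.38% higher and 4.62% lower.

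**Figure D1:**
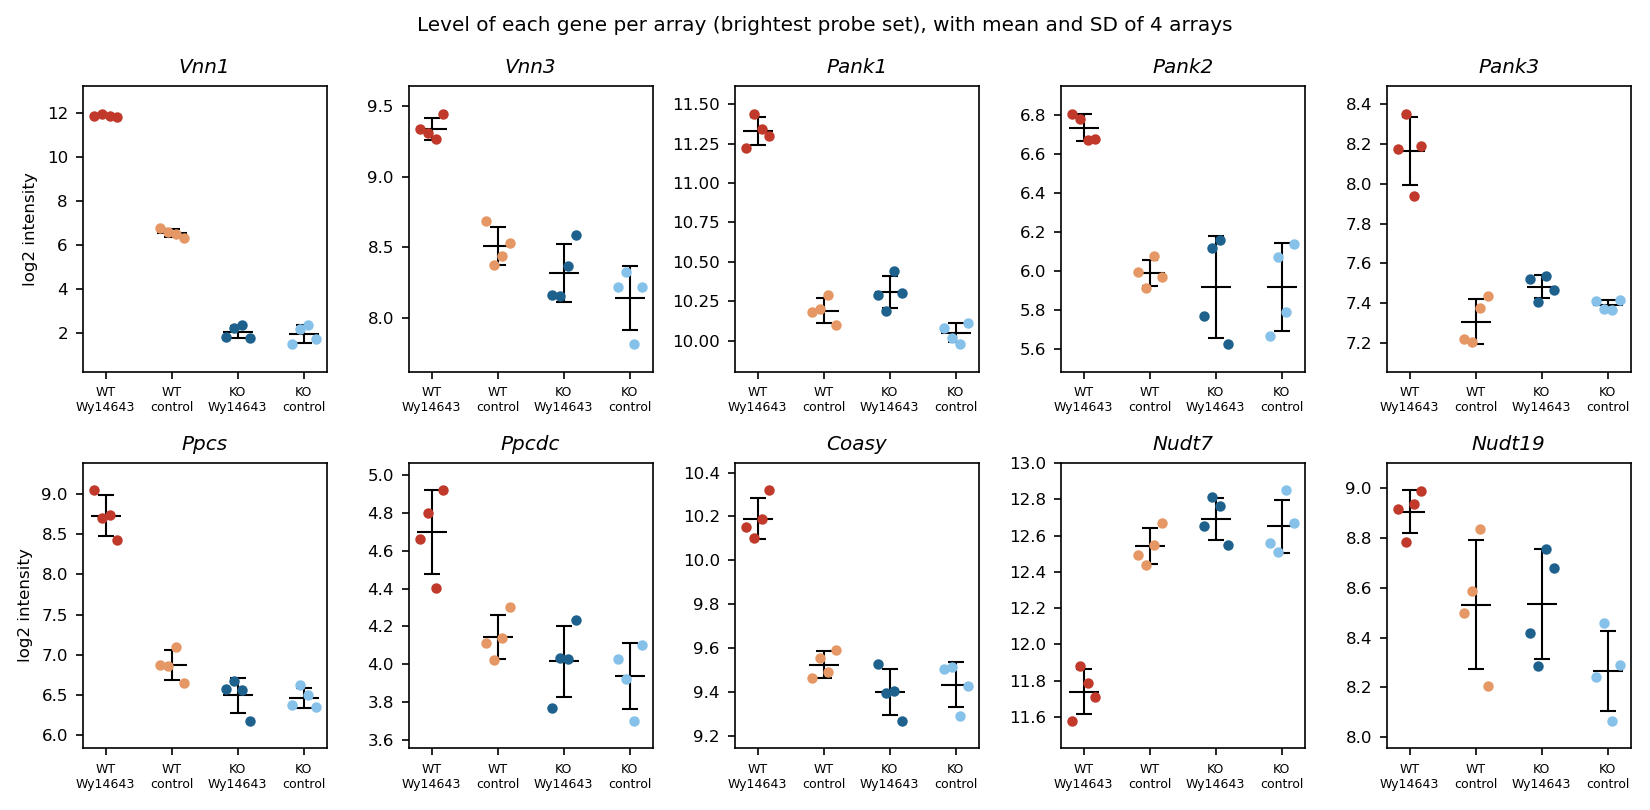
Level of each of the 10 genes on every array (log2 intensity, brightest probe set), 1 panel per gene with its own vertical scale, by genotype and food; KO is the PPARα-null mouse, points are arrays, and bars are the mean and SD of 4. Vnn1 falls from 11.88 in treated wild type through 6.52 in untreated wild type to near 2 in both knockout groups, most other genes are highest in treated wild type, and Nudt7 is lowest there.

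Vnn1, which codes for vanin-1, a pantetheinase held on the outside of the cell membrane, had the widest range of the 10 genes. In wild type mice its 4 arrays read 11.85, 11.96, 11.87 and 11.82 with Wy14643 and 6.75, 6.58, 6.48 and 6.28 without. The knockout arrays read 1.81, 2.20, 2.34 and 1.77 with Wy14643 and 1.48, 2.19, 2.36 and 1.73 without, around the array median. Treated wild type, untreated wild type and the knockout thus formed 3 levels with no overlap, and the knockout groups overlapped each other. Wy14643 raised Vnn1 by 5.35 ± 0.17 (SE) in wild type, a 40.9-fold change (adjusted p = 3.09e-13), the 26th largest rise of 18193 genes. In the knockout the difference was 0.09 ± 0.17, with a 95% interval from -0.27 to 0.46 (adjusted p = 0.922). The fitted interaction was 5.26 ± 0.25 (adjusted p = 1.14e-10), but both knockout groups were at background, where a change below background could not be seen.

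Without Wy14643, Vnn1 also separated the genotypes, the wild type level exceeding that of the knockout at least 19.5-fold when the knockout is placed at the highest array median (adjusted p = 9.75e-11). In that comparison 1 of the 10 genes was called, against 0.544% of all genes, 0.401% higher and 0.143% lower. A second Vnn1 probe set gave the same order with a different size. It read 11.25, 11.28, 11.43 and 11.19 in treated and 3.88, 4.09, 3.64 and 4.35 in untreated wild type, and 1.51 to 1.92 in all knockout arrays. Its rise in wild type was 7.30 ± 0.13 (adjusted p = 1.07e-16) and its interaction 7.08 ± 0.18. On control food its wild type level exceeded that of the knockout at least 3.37-fold, with the knockout placed in the same way. The probe sets therefore differ in the fold they give, while both place the knockout near background.

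Vnn3 codes for a second vanin and lies next to Vnn1 on chromosome 10 in the RefSeq annotation. Its single probe set read 9.34, 9.31, 9.27 and 9.45 in treated wild type mice and 8.69, 8.38, 8.44 and 8.53 in untreated ones. In knockout mice it read 8.16, 8.15, 8.37 and 8.58 with Wy14643 and 8.22, 8.33, 7.81 and 8.22 without. Unlike Vnn1, Vnn3 was well above background in the knockout. Vnn3 rose by 0.83 ± 0.12 in wild type (1.78-fold, adjusted p = 5.93e-05) and the treated and untreated groups did not overlap. The knockout difference was 0.17 ± 0.12 (adjusted p = 0.717), and the interaction of 0.66 ± 0.17 missed the threshold (adjusted p = 0.0166). It passed when the third untreated knockout array was left out (0.77) and when the fourth treated knockout array was left out (0.75). On control food the wild type arrays of Vnn3 lay above all knockout arrays, by 0.36 ± 0.12, which did not pass (adjusted p = 0.331). Groups without overlap on control food were seen for 3 of the 10 genes, Vnn1, Vnn3 and Ppcs, against 8.16% of all genes.

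By their brightest probe sets, 5 of 6 synthesis genes were called higher in wild type mice, with a median difference of 0.80. All 6 had treated and untreated groups that did not overlap. Of all genes 7.72% were called higher and 29.1% (53.6% of those with a mean above 4) did not overlap. Differences ranged from 0.55 for Ppcdc to 1.86 for Ppcs. The Pank2 call rested on that probe set alone. Its next brightest probe set differed by -0.31 and the mean of its probe sets by 0.13, neither called. In the knockout 0 of 6 were called and the median difference was 0.05.

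Pank1, Pank2 and Pank3 code for pantothenate kinases, the enzymes that start the pathway and are held in check by CoA and its thioesters. Pank1 read 11.22, 11.44, 11.34 and 11.30 in treated and 10.18, 10.20, 10.29 and 10.10 in untreated wild type mice. Knockout mice gave 10.29, 10.19, 10.44 and 10.30 with Wy14643 and 10.08, 10.02, 9.98 and 10.11 without. The wild type rise was 1.13 ± 0.08 (2.19-fold, adjusted p = 1.47e-08) and the interaction 0.87 ± 0.12 (adjusted p = 4.97e-05). Pank1 was the only one of the 10 genes whose treated and untreated knockout arrays did not overlap, against 6.38% of all genes. That knockout difference was 0.26 ± 0.08, which is a 1.20-fold change with an interval from 0.08 to 0.43 and was not called (adjusted p = 0.31). The other 3 Pank1 probe sets rose by 1.24, 1.72 and 1.26 in wild type, and all 3 were called. In the knockout they differed by 0.41, 0.42 and 0.59, none of which was called. Their interactions were 0.83, 1.29 and 0.67, and the last, from the dimmest probe set, did not pass (adjusted p = 0.248).

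Pank3 read 8.18, 8.35, 7.94 and 8.19 in treated and 7.22, 7.20, 7.37 and 7.43 in untreated wild type mice. All 8 knockout arrays of Pank3 lay between 7.37 and 7.54. The rise in wild type was 0.86 ± 0.09 (adjusted p = 1.8e-06) and the knockout difference 0.09 ± 0.09 (adjusted p = 0.82), with an interaction of 0.77 ± 0.13 (adjusted p = 0.000543). A dimmer second probe set rose by 1.02 ± 0.17 (adjusted p = 0.00026), and its interaction of 0.79 ± 0.24 did not pass (adjusted p = 0.0435).

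The result for Pank2 depended on the probe set. The brightest read 6.81, 6.78, 6.68 and 6.68 in treated and 5.99, 5.92, 6.08 and 5.97 in untreated wild type mice. Its knockout arrays ran from 5.63 to 6.16 with Wy14643 and from 5.67 to 6.14 without. By this probe set Pank2 rose by 0.75 ± 0.13 (1.68-fold, adjusted p = 0.00026). A second, only slightly dimmer, read 5.16 to 5.41 in treated and 5.48 to 5.87 in untreated wild type mice, a difference of -0.31 ± 0.13 in the other direction (adjusted p = 0.115). The third was at background. Which transcripts each probe set reads was not determined here. The interaction of the brightest, 0.75 ± 0.18, was just past the threshold (adjusted p = 0.00893) and missed it when any one of 13 of the 16 arrays was left out; it held without the second or the third treated knockout array or the first untreated one.

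Ppcs codes for the synthetase that joins cysteine to phosphopantothenate, and it rose most of the synthesis genes. Treated wild type mice gave 9.05, 8.70, 8.74 and 8.43 and untreated ones 6.87, 6.86, 7.10 and 6.65. In the knockout Ppcs read 6.58, 6.68, 6.57 and 6.18 with Wy14643 and 6.38, 6.62, 6.51 and 6.36 without. Every treated wild type array stood more than 1 log2 unit above every other array. The rise was 1.86 ± 0.14, or 3.63-fold (adjusted p = 1.46e-08), the 297th largest of 18193 genes, and the knockout difference was 0.03 ± 0.14 (interval -0.26 to 0.32, adjusted p = 0.969). The interaction was 1.83 ± 0.19 (adjusted p = 3.48e-06). Another probe set, shared with the pseudogene Gm8465 so that the source of its signal is uncertain, differed by 2.10 ± 0.25 in wild type and by 0.02 ± 0.25 in the knockout. On control food Ppcs was 0.40 ± 0.14 higher in wild type with no overlap, which did not pass (adjusted p = 0.343).

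Ppcdc, coding for the decarboxylase that follows, was dim. It read 4.66, 4.80, 4.41 and 4.92 in treated and 4.12, 4.02, 4.14 and 4.30 in untreated wild type mice, and 3.70 to 4.23 in the knockout arrays. The wild type difference of 0.55 ± 0.13 had an adjusted p of 0.00372 but a fold of 1.47, under the 1.5-fold limit, and it was not called. Leaving out the third treated or the fourth untreated wild type array brought it to 0.65 and 0.61, past the limit. Its interaction was 0.48 ± 0.18 (adjusted p = 0.103). The remaining pair of Ppcdc probe sets was at or near background and was not called.

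Coasy codes for CoA synthase, a protein with both last activities of the pathway. Its arrays read 10.15, 10.10, 10.19 and 10.32 in treated and 9.46, 9.55, 9.49 and 9.59 in untreated wild type mice. Knockout mice gave 9.53, 9.39, 9.40 and 9.27 with Wy14643 and 9.50, 9.51, 9.29 and 9.43 without. Treated wild type mice were above all others. Coasy rose by 0.67 ± 0.09 (1.59-fold, adjusted p = 1.53e-05), against -0.04 ± 0.09 in the knockout (adjusted p = 0.946), with an interaction of 0.70 ± 0.12 (adjusted p = 0.000648). The second Coasy probe set rose by 0.84 ± 0.10 and had an interaction of 0.92 ± 0.14, both called.

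**Figure D2:**
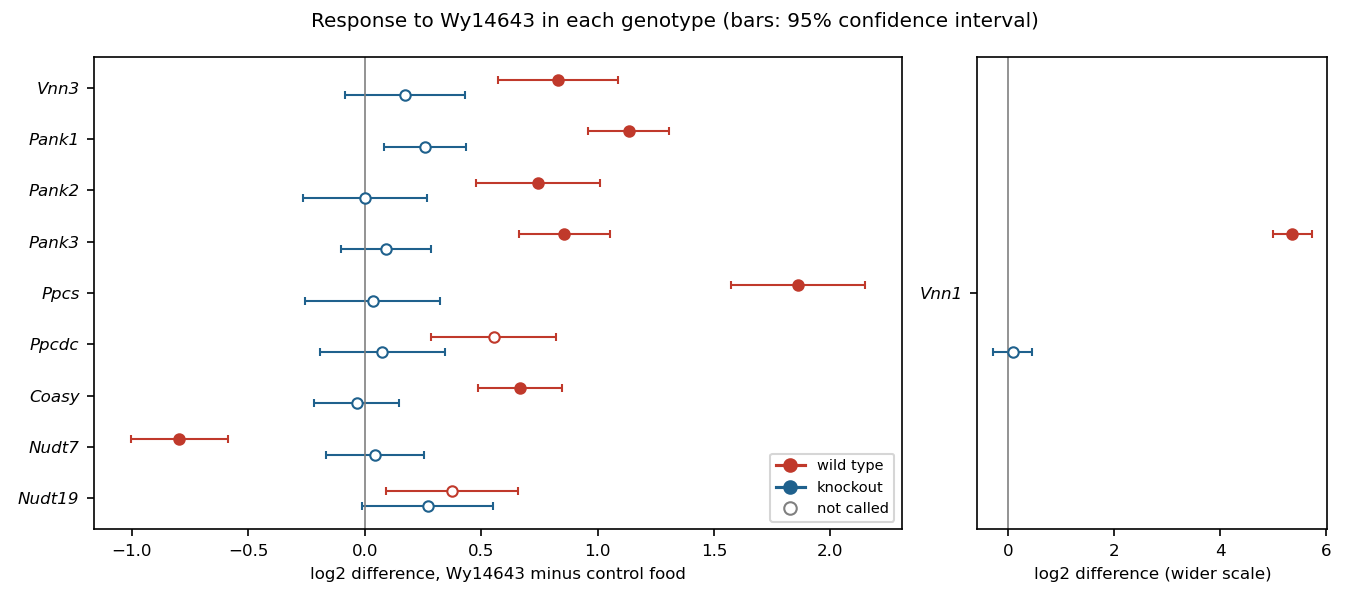
Response to Wy14643 (log2 difference, treated minus control food) of each gene in wild type (red) and knockout (blue) mice, with 95% confidence intervals from limma; filled points were called, and Vnn1 is in a panel of its own with a wider scale. In wild type 7 genes are called higher and Nudt7 lower, while no knockout point is called and 9 of the 10 knockout intervals include 0.

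Of the diphosphatases, Nudt7 was called lower and Nudt19 was not called. Nudt7, whose protein is the main CoA diphosphatase of liver peroxisomes, read 11.58, 11.88, 11.79 and 11.71 in treated and 12.49, 12.44, 12.55 and 12.67 in untreated wild type mice. In the knockout Nudt7 read 12.65, 12.81, 12.76 and 12.55 with Wy14643 and 12.56, 12.51, 12.85 and 12.67 without. The treated wild type arrays were below all 12 others. Nudt7 differed by -0.80 ± 0.10 in wild type, 1.74-fold lower (adjusted p = 9.53e-06), and by 0.04 ± 0.10 in the knockout (adjusted p = 0.941). The interaction was -0.84 ± 0.14 (adjusted p = 0.000431).

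The 4 Nudt7 probe sets did not give one size. The second brightest differed by -1.06 ± 0.11 (adjusted p = 8.22e-07), with an interaction of -1.20 ± 0.15. The next one differed by -0.48 ± 0.16, which did not pass (adjusted p = 0.0492), and the dimmest by 0.06 ± 0.15 (adjusted p = 0.861). The mean of the 4 differed by -0.57 with an adjusted p of 0.000264, under the 1.5-fold limit.

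Nudt19 codes for the related peroxisomal enzyme that is known chiefly from kidney. It read 8.92, 8.79, 8.94 and 8.99 in treated and 8.50, 8.59, 8.84 and 8.21 in untreated wild type mice. Knockout mice gave 8.42, 8.29, 8.76 and 8.68 with Wy14643 and 8.24, 8.46, 8.07 and 8.29 without. The wild type groups overlapped, as did those of the knockout. The difference was 0.37 ± 0.13 in wild type (interval 0.09 to 0.66, adjusted p = 0.0585) and 0.27 ± 0.13 in the knockout (interval -0.01 to 0.55, adjusted p = 0.564). The interaction of 0.10 ± 0.19 had an interval from -0.29 to 0.50, which includes both no difference and one as large as the wild type response itself. A second probe set gave 0.24 ± 0.14 in wild type and 0.32 ± 0.14 in the knockout, neither called.

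**Figure D3:**
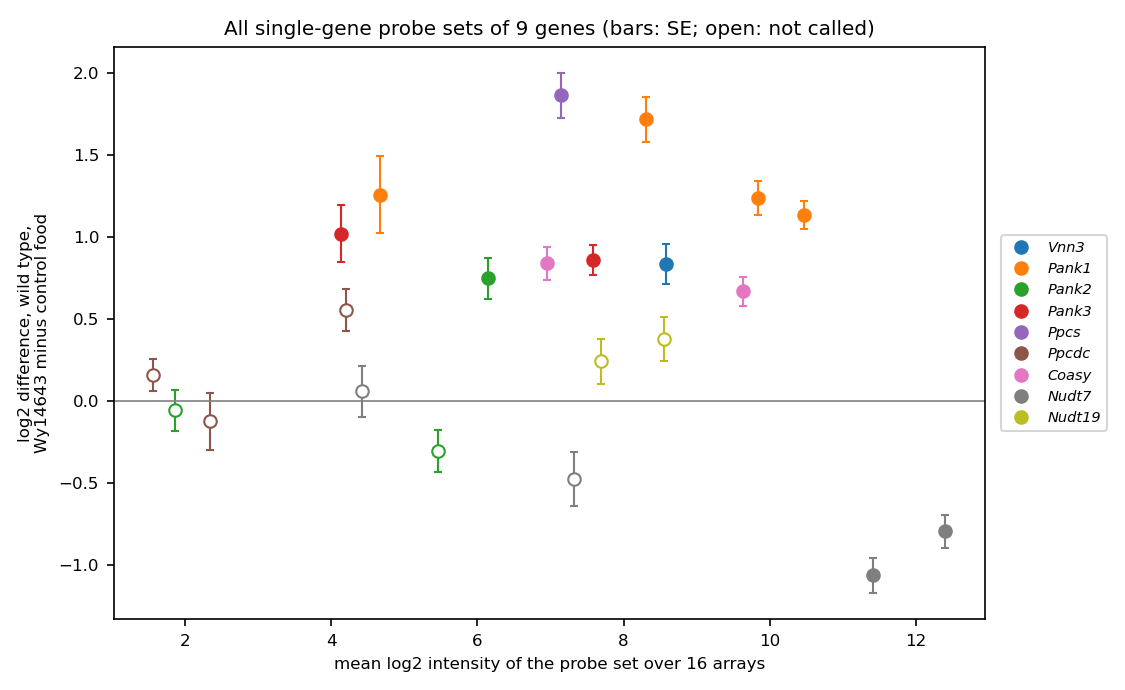
Response of every single-gene probe set of 9 genes in wild type mice (log2 difference with SE, treated minus control food) against its mean log2 intensity over 16 arrays; colours are genes, filled points were called, and Vnn1 is left out because its rises of 5.35 and 7.30 are off the scale. The probe sets of Pank1, Pank3 and Coasy lie together above 0, those of Pank2 lie on both sides of 0, and those of Nudt7 run from -1.06 to 0.06.

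Synthesis and Nudt7 were also set side by side on each array. Nudt7 was the only gene of the list called lower in wild type. The separation of the treated wild type mice therefore follows from the calls above and adds no evidence. Nudt19 and the pantetheinases, which did not fall, were left out of this pairing. The mean of the 6 synthesis genes, relative to the mean of the untreated wild type arrays, was 0.88 to 1.03 in treated wild type mice, -0.16 to 0.02 in treated knockout and -0.23 to -0.08 in untreated knockout mice. On the same arrays Nudt7 was at -0.95 to -0.66 in treated wild type mice, and it lay between -0.09 and 0.31 on the 12 others. Nudt19, which was not called, was at 0.25 to 0.46 in treated wild type mice and -0.47 to 0.30 on the others, with overlap. Its difference with Wy14643 was 0.37 in wild type and 0.27 in the knockout. The gap between the synthesis mean and Nudt7 was 1.77 ± 0.15 (SD, n = 4) in treated wild type mice and lay between -0.54 and 0.07 on the other arrays. These are the same values as above in another arrangement, and RNA levels say nothing here of enzyme activity or of the amount of CoA, which were not measured on the arrays.

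**Figure D4:**
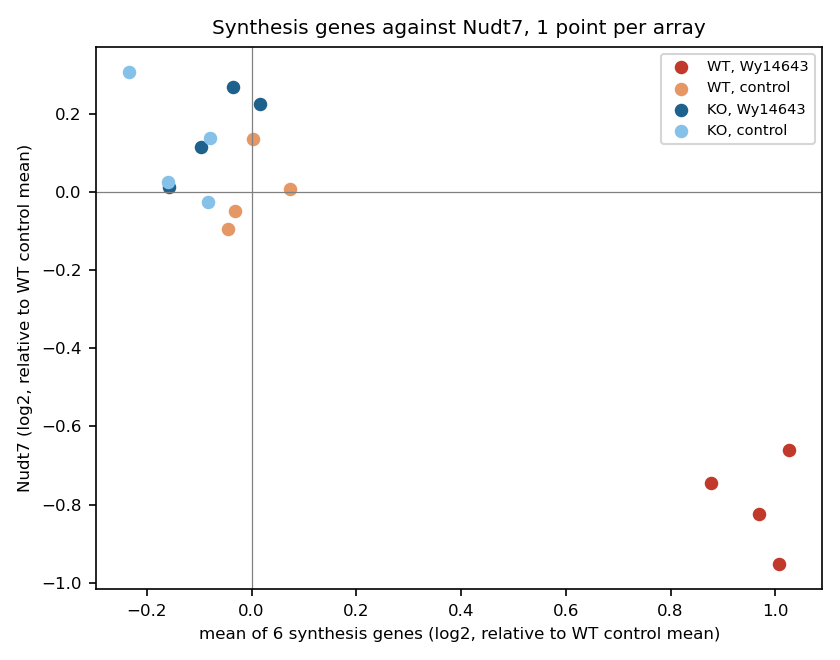
Each point is 1 array, placed by the mean level of the 6 synthesis genes (horizontal) and the level of Nudt7 (vertical), both in log2 units relative to the mean of the 4 untreated wild type arrays; colours are the groups. The 4 treated wild type arrays lie alone at the lower right, at 0.88 to 1.03 and -0.95 to -0.66, and the other 12 lie around 0 on both axes.

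With Wy14643 in both genotypes, 8 of the 10 genes were called higher in wild type and 1 lower. The shares of all genes were 8.12% and 7.13%, 15.3% together (13.9% and 15.2%, 29.1% together, of those with a mean above 4). The 2 groups also differ in substrain, and the comparison includes any difference already present on control food. Groups did not overlap for any of the 10 genes, which held for 27.7% of all genes and 50.1% of those with a mean above 4. This comparison shares its treated wild type arrays, and its choice of genes, with the one above. Vnn1 was called higher (adjusted p = 1.06e-16), its knockout level being at background. Ppcs was higher by 2.23 ± 0.14 (4.70-fold, adjusted p = 1.18e-09). Vnn3 was higher by 1.02 ± 0.12 (adjusted p = 5.33e-06) and Pank1 by 1.02 ± 0.08 (adjusted p = 5.2e-08). The other 4 synthesis genes were higher by 0.68 to 0.82, Ppcdc among them at 0.68 ± 0.13 (adjusted p = 0.000566), a call lost when 16 was added to each intensity before taking logs (0.38). Nudt7 was lower in wild type by 0.95 on the log2 scale (adjusted p = 1.03e-06). Nudt19 was 0.37 ± 0.13 higher with no overlap and did not pass (adjusted p = 0.0592).

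Genes next to the cycle were followed as lists. Of 6 genes for CoA supply and transport, 1 was called higher with Wy14643 in wild type, against 7.72% of all genes. It was Slc25a42, the mitochondrial carrier of CoA, which rose by 1.63 ± 0.15 (adjusted p = 2.83e-07) and differed by 0.03 ± 0.15 in the knockout. Slc5a6, the pantothenate transporter, was dim and was not called in either genotype (0.60 ± 0.25 in wild type, 0.58 ± 0.25 in the knockout). Pank4, the relative of the pantothenate kinases, gave -0.36 ± 0.11 and did not pass (adjusted p = 0.0287). Of the other hydrolases, Nudt8, a mitochondrial relative of Nudt7, was not called (0.22 ± 0.09, adjusted p = 0.0833). Enpp3, an ectoenzyme that splits nucleotide diphosphates, differed by -0.97 ± 0.12 in wild type (adjusted p = 6.56e-06) and by -0.53 ± 0.12 in the knockout (adjusted p = 0.102), without overlap in either, and its interaction did not pass (adjusted p = 0.106).

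Cysteamine, the other product of pantetheinase, leads to taurine, and of 6 genes of cysteamine and taurine metabolism 2 rose and 2 fell in wild type mice, against 7.72% and 6.74% of all genes. Csad, the decarboxylase of the cysteine route to taurine, rose by 2.57 ± 0.16 (adjusted p = 1.61e-09) from a level of 8.38 that on control food was below that of the knockout at 9.33 (-0.95 ± 0.16, adjusted p = 0.00521). Fmo1, a monooxygenase known to oxidise hypotaurine, rose by 0.98 ± 0.08 (adjusted p = 4.94e-08). Cdo1, the cysteine dioxygenase upstream of Csad, fell by 1.41 on the log2 scale (adjusted p = 2.56e-08), and Slc6a6, the taurine transporter, fell by 1.82 (adjusted p = 9.2e-09). Ado, the dioxygenase that acts on cysteamine itself, was not called. In the knockout 0 of the 6 were called, against 0.0275% of all genes.

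**Figure D5:**
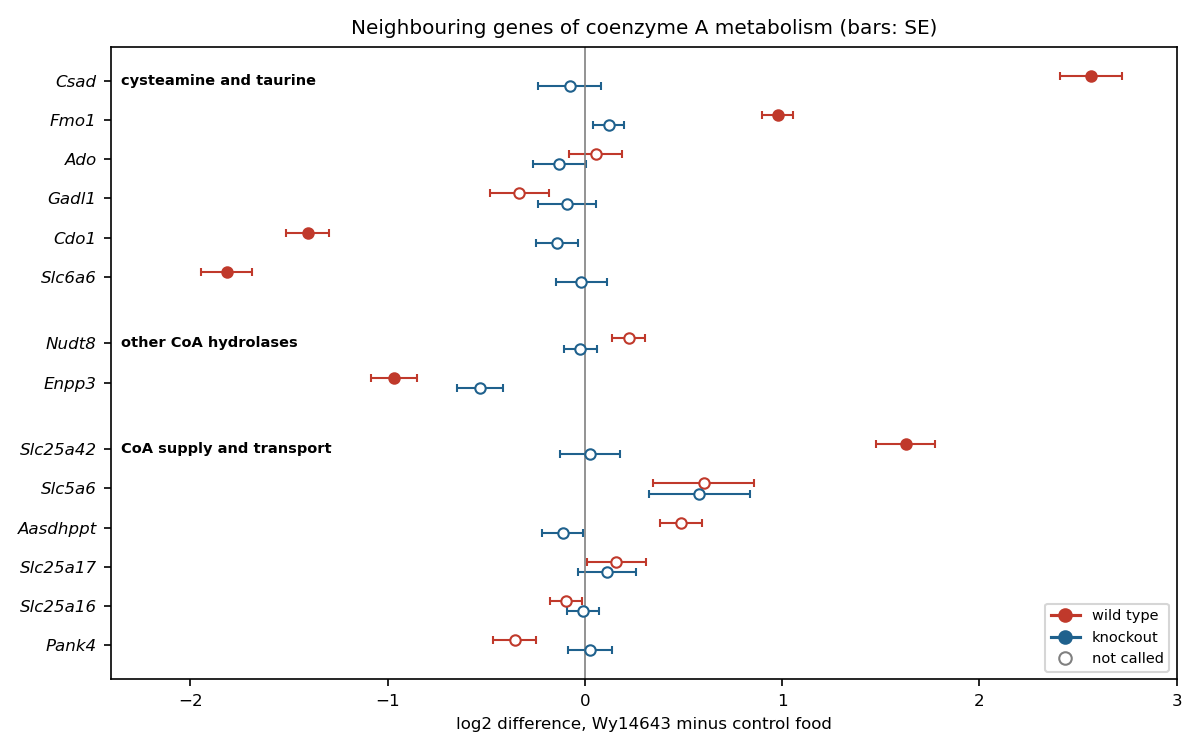
Response to Wy14643 (log2 difference with SE, treated minus control food) of 14 genes next to the CoA cycle in wild type (red) and knockout (blue) mice, grouped by list; filled points were called. In wild type Csad, Fmo1 and Slc25a42 are called higher and Cdo1, Slc6a6 and Enpp3 lower, and no knockout point is called.

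Enzymes that load or free CoA were also counted in wild type, where 14.5% of all genes were called. Of 13 acyl-CoA thioesterase genes, whose products free CoA from fatty acids, 11 were called higher in wild type and 1 lower, with rises of 8.15 for Acot3, 6.22 for Acot1 and 5.13 for Acot4. Near-identical copies in that family can share probes, so that the value of a single gene is uncertain. Of 16 measured acyl-CoA synthetase genes, whose products load CoA, 10 were higher and 2 lower. The largest rises were those of Slc27a1, at least 152-fold since its untreated level was at background, Slc27a4 at 2.69 and Acsl3 at 2.00. Of 4 relatives of the vanins in the nitrilase family 1 was called, Nit2, which fell by 0.97 on the log2 scale (adjusted p = 2.06e-07).

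Among 5695 genes bright enough in at least 1 group, those whose pattern over the 16 arrays was most like that of each of 5 genes were found by the root mean square distance of log2 levels after centring each gene. Nearest to Vnn1 were Cox6b2, Cyp4a14, Cyp4a31, Plin5 and Rad51b, at distances of 1.06 to 1.60, which are large beside the values for the other genes because Vnn1 itself varied more (SD 4.21 over the arrays). Cox6b2, the nearest, had means of 10.55, 7.92, 2.36 and 2.04 in treated and untreated wild type and treated and untreated knockout mice. Nearest to Vnn3 were Fcgrt, Stk16, Zfand6, Acaa2 and Gstk1 (0.135 to 0.151), and nearest to Pank1 were Bfar, Timm8a1, Acad11, Fam136a and Anxa7 (0.0890 to 0.115). Osbp, Ndfip1, Kdelr2, Cyp2a12 and Zbtb20 were nearest to Nudt7 (0.108 to 0.122). Nudt19 had Abhd15, Pbld1, Avpi1, Pdk1 and Ubac1 nearest (0.135 to 0.146), against its own SD of 0.29. All of these distances are over arrays that share the same 4 groups.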

How the data were processed

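RNA of single livers was hybridised to Affymetrix mouse genome arrays, 16 in all. The deposited values are intensities that the authors computed with GCRMA 2.20 (per the labels), which corrects background and normalizes between arrays; they are on a linear scale, none is missing and all are above 0. Compression of dim signals by this step can change folds near background. The log2 of each value was taken with no offset. After 64 control probe sets were left out, 45037 were tested with limma 3.58.1 in R 4.3.3, using 1 mean per group over all 16 arrays, two-sided, with Benjamini-Hochberg adjustment over all of them. Calls used the thresholds of the study's methods. Probe sets were named from the platform annotation: 34945 had 1 gene, 932 several and 9160 none, and 34741 of the single-gene probe sets matched RefSeq by gene identifier. A gene was represented by its single-gene probe set of highest mean. Of the member genes 24 probe sets were single-gene and 1 was shared. Promoters came from RefSeq. Genes named were the members, Ppara as the targeted gene, up to 3 called genes of largest difference per list, and the 5 most alike. Slc5a6, Pank4, Nudt8, Ado and Fmo1 fall outside this rule and were chosen after their values were seen. The members and lists were chosen with earlier results of these data known. The fit was tested on simulated data. Each sample is 1 mouse, and the number of arrays limits the precision. Alternatives tried were other normalizations, filters on dim probe sets, offsets, weights, thresholds, probe set rules, a replicate block and leaving out each array.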

Additional observations from a re-analysis of the deposited data

Results flagged for a closer look

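The response to Wy14643 differed between wild type and knockout mice, by the interaction in limma, for 7 of the 10 genes. The difference between the responses, wild type minus knockout on the log2 scale, was 5.26 for Vnn1, 1.83 for Ppcs, 0.87 for Pank1, 0.77 for Pank3, 0.75 for Pank2, 0.70 for Coasy and -0.84 for Nudt7. For Vnn1 both knockout groups were at background, so that a knockout response below it could not be seen. Pank2 was closest to the threshold (adjusted p = 0.00893), and its next brightest probe set gave -0.18 (adjusted p = 0.631). No array stood apart from the other 3 of its group, by Dixon's test, in any of the 40 sets of 4 arrays formed by 10 genes and 4 groups.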

How the results depend on the processing

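The numbers of genes called stayed within 1.5 times in all comparisons under all alternatives, except that a filter on a mean level above 6 took the count on control food from 1 to 0 because it removed Vnn1. With each array left out in turn, the count was 9 to 9 for the genotypes under Wy14643, 8 to 9 for the wild type response, 0 to 0 for the knockout response, 1 to 1 on control food and 6 to 7 for the interaction. Signs turned only for differences that were not called. In the knockout response Pank2 went from -0.00 to 0.031 with array weights, 0.000213 with 16 added and 0.068 with quantile normalization. On control food Pank2 went to -0.028 with the mean of its probe sets, and with the probe set of largest SD Pank3 went to 0.050 and Coasy to -0.061. The Nudt19 interaction went to -0.077 with the probe set of largest SD. Leaving out single arrays moved the knockout response between -0.059 and 0.23 for Vnn1, -0.084 and 0.097 for Pank2, -0.025 and 0.14 for Ppcs, -0.0036 and 0.16 for Ppcdc, -0.083 and 0.0083 for Coasy and -0.0014 and 0.11 for Nudt7. It moved Pank2 on control food between -0.013 and 0.15 and the Nudt19 interaction between -0.0039 and 0.21. Averaging all probe sets took Pank2 to 0.26 between treated genotypes, 0.13 for the wild type response and 0.29 for the interaction, and Ppcdc to 0.20 between treated genotypes, none called. The Pank2 interaction was also lost with quantile normalization (0.66) and with the replicate block (adjusted p = 0.0158). The Vnn3 interaction was called with array weights (0.72), with either filter on dim probe sets and with trend and robust moderation. The cause of these changes was not tested. Arrays with the same replicate number did not deviate together (correlations -0.12 to 0.19, median 0.05, above 0.1 in 6 of 24 pairs), so the numbers were not taken to pair the mice. With the replicate block the genes called numbered 9, 8, 0, 1 and 6 in the order above.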
